A study of Mus musculus with 8 samples.

Results

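The genes described here carry glucose into the muscle fibre and store it as, or release it from, glycogen. They are 9 genes, chosen by name: the glucose transporters Slc2a4 and Slc2a1, the synthesis genes Gys1, Gbe1 and Ugp2, the phosphorylase gene Pygm and the phosphorylase kinase subunits Phka1, Phkb and Phkg1. The array held 14 probes for these 9 genes, of 25697 probes in all and 16593 named genes. The samples were tibialis anterior muscles of male C57BL/6 mice aged 8 weeks, from either leg, 7 days after they were transfected: 4 with a p21 plasmid and 4 with a control plasmid. p21, encoded by Cdkn1a, binds and inhibits cyclin-dependent kinases. All muscles, controls included, had received a plasmid. The sources used here do not give the promoter of the plasmid, the share of fibres that took it up, or which muscles share a mouse. The p-values therefore measure only the spread among these muscles, which may be technical. In a whole muscle, fewer cells of a type and less RNA per cell cannot be told apart.

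Skeletal muscle takes up glucose mainly through GLUT4, the product of Slc2a4, which insulin and contraction move from inner vesicles to the surface of the fibre, while GLUT1, the product of Slc2a1, is found in many cell types and serves basal uptake. Glucose that is not burned is activated to UDP-glucose by the Ugp2 enzyme, joined into chains by glycogen synthase (Gys1) and branched by the Gbe1 enzyme. Contraction and adrenaline release it again: phosphorylase kinase, built from regulatory α (Phka1) and β (Phkb) subunits, a catalytic γ subunit (Phkg1) and calmodulin, switches on the muscle glycogen phosphorylase (Pygm).

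Each value below is a log2 intensity, a microarray brightness on a log2 scale, with the same spread of values in every array as deposited. A change is the p21 mean minus the control mean ± SE, tested with limma across all probes, and a gene was called at Benjamini-Hochberg adjusted p under 0.05. A gene with several probes is represented by its brightest one, and levels of different probes are not compared with each other. The values ran from a floor of 8.13 to 15.27 with a median of 8.39, so changes of probes near the floor are compressed. The check of the transfection held in every muscle: the brightest Cdkn1a probe read 9.83, 9.92, 10.27 and 10.02 in control replicates 1 to 4, and 11.31, 11.72, 11.25 and 11.50 in p21 replicates 1 to 4.

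Marker genes show what else differed between these muscles. Beside their counts stand the shares over the array: by brightest probes 4.79% of all genes fell and 4.24% rose. Among probes brighter than the median probe, 8.57% fell and 7.15% rose. The tissue label was borne out by 11 measured muscle fibre markers, whose means lay between 14.47 and 14.69 in the 8 muscles. Of these fibre markers 9 had negative changes, and the only one that passed was Myh4, a fast myosin heavy chain, which fell from 13.98 ± 0.10 to 13.55 ± 0.24 (change −0.44 ± 0.11, adjusted p = 0.0334) with no overlap. This change lies between those of Gys1 and Pygm below, and Myh4 no longer passed once control 1, 2 or 3 or p21 replicate 4 was dropped. In 3 of the 11 fibre markers, Myh4, Ckm and Tnnt3, every p21 muscle lay below every control, a pattern that 9.34% of all probes showed. Ckm, the muscle creatine kinase, and Acta1, skeletal actin, changed by −0.06 ± 0.04 and 0.06 ± 0.05 and did not pass. Their control means were 15.08 and 15.01, near the highest value of 15.27, where changes may be compressed as they are near the floor.

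Macrophage markers differed between the groups, with 12 of 17 that rose, 0 that fell and a median change of 0.96. The number that rose was 5 with p21 replicate 4 left out and 7 with control 1 or control 2 left out, and 7 with robust eBayes. With any 1 array left out the median stayed between 0.81 and 1.06. Their mean level ran from 9.66 to 10.32 in the controls and from 10.79 to 11.37 in the p21 muscles. By its brightest probe the macrophage surface gene Adgre1 changed by 0.85 ± 0.25 (adjusted p = 0.0621), with 2 of its 3 probes past the threshold.

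Of 9 endothelial markers 3 fell and 0 rose, with a median of −0.33. None of the 9 fell with control 1, 2 or 4 or p21 replicate 1 or 4 left out, nor with arrays scaled to the fibre markers, and 6 fell with the replicate block. Of 3 Schwann and perineurial markers Cldn1 fell (−0.23 ± 0.06, adjusted p = 0.0474), while the myelin gene Mbp had a change of −0.57 ± 0.21 (adjusted p = 0.129), and all 3 fell with the replicate block. None of the 3 passed in 7 of the 8 fits with an array left out, the exception being that without p21 replicate 3. Of 3 erythroid markers Alas2, of haem synthesis, fell (−0.30 ± 0.06, adjusted p = 0.0169), a call that was lost without control 1, control 2 or p21 replicate 4. Of 8 fibroblast markers 1 rose and 0 fell, with a median of 0.29, and none rose with control 1, 2 or 3 or p21 replicate 4 left out. None of 4 adipocyte markers was called. The part of these marker differences in the changes below was not tested.

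The stretch around the annotated start was read for 8 of the 9 genes from RefSeq promoters (build GRCm38.p6), 250 bases before to 50 after the start. Slc2a4 had no entry. Base 250 from the first base of the window was the annotated gene start for 19826 of 32850 promoters, so the start of a window can differ from it. The windows of 3 genes that fell, Gys1 (chr7:45434589-45434888, plus strand), Pygm (chr19:6384158-6384457, plus strand) and Phkg1 (chr5:129879039-129879338, minus strand), are shown beside that of Slc2a1 (chr4:119108495-119108794, plus strand), which did not pass the test. Capitals mark the E-box CANNTG, the letters that myogenic factors and other basic helix-loop-helix proteins bind, which reads the same on both strands.
Gys1: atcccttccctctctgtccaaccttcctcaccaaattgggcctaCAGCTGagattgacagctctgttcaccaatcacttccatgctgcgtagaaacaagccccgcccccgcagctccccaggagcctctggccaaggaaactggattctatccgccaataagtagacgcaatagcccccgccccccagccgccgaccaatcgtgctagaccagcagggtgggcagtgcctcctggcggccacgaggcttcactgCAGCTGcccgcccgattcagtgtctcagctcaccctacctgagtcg
Pygm: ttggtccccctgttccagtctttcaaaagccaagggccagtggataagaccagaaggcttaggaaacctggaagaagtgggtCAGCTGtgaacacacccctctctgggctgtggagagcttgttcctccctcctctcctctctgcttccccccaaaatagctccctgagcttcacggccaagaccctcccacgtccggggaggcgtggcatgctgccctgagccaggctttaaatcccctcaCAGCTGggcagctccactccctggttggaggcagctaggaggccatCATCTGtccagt
Phkg1: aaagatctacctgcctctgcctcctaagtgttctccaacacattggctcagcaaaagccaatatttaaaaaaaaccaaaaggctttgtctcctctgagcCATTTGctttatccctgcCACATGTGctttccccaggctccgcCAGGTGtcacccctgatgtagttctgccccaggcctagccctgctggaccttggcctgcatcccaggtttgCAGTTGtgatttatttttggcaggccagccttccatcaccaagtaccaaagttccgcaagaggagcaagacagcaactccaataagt
Slc2a1: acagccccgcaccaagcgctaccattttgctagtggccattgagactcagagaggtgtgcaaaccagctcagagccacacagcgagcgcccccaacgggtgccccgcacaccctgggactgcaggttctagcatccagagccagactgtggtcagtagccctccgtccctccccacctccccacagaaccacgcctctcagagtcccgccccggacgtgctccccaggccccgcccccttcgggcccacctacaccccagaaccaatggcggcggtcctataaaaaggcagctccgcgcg
Gys1 held 2 matches, Pygm 3, Phkg1 5 (a pair of which overlap) and Slc2a1 none. Over all 8 genes, 7 held at least 1 E-box, and 72.3% of the 32851 promoter windows in the table did. The MEF2 consensus was in 0 of the 9 windows of these genes (Ugp2 has 2), against 3.19% of all windows, and TATAAA was in 1, that of Slc2a1, against 13.6%. The Slc2a1 match lay 28 to 33 bases past the annotated start, not before it. The GC content of the 9 windows reached 76.0%, and 8 lay above the median of 52.7% for all windows. These matches describe the letters in these windows and say nothing of which factor was bound.

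Of the 9 genes, 7 fell in the muscles that received p21, 0 rose and 2 did not pass. By its brightest probe, 4.79% of all genes on the array fell at this threshold and 4.24% rose; among single probes 4.35% fell and 3.68% rose (8.03% in either direction), and among probes brighter than the median probe 8.57% fell and 7.15% rose. The genes that fell were Slc2a4, Gys1, Gbe1, Pygm, Phka1, Phkb and Phkg1, and those that did not pass were Slc2a1 and Ugp2. In the same 7 genes every p21 muscle lay below every control muscle, a pattern that 9.34% of all probes showed, while 7.41% had every p21 muscle above every control. The median change of the 9 genes was −0.50, against −0.004 over the brightest probes of all genes and −0.01 over probes brighter than the median probe. The genes were chosen with earlier results of these data known, so their count describes them and is no independent test of the pathway.

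The count depended on single arrays. With 1 control left out, the number of genes that fell was 0, 0, 1 and 2 for replicates 1 to 4 in turn. With 1 p21 muscle left out it was 7, 6, 5 and 0. In these fits with 7 arrays the share of called probes over the whole table changed too: without p21 replicate 4, 29 probes were lower and 130 higher, against 1119 and 945 with all arrays. The sizes moved less, and the median change of the 9 genes lay between −0.58 and −0.39 with an array left out. The arrays themselves, rather than any label, give an uncertain basis for treating equal replicate numbers as pairs. Controls 3 and 4 were each closer to a p21 muscle of another number (correlations 0.448 and 0.297) than of their own (0.212 and 0.181). With the number as a block 8 genes fell, Ugp2 being added, where 6.33% of all probes fell and 6.07% rose.

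**Figure D1:**
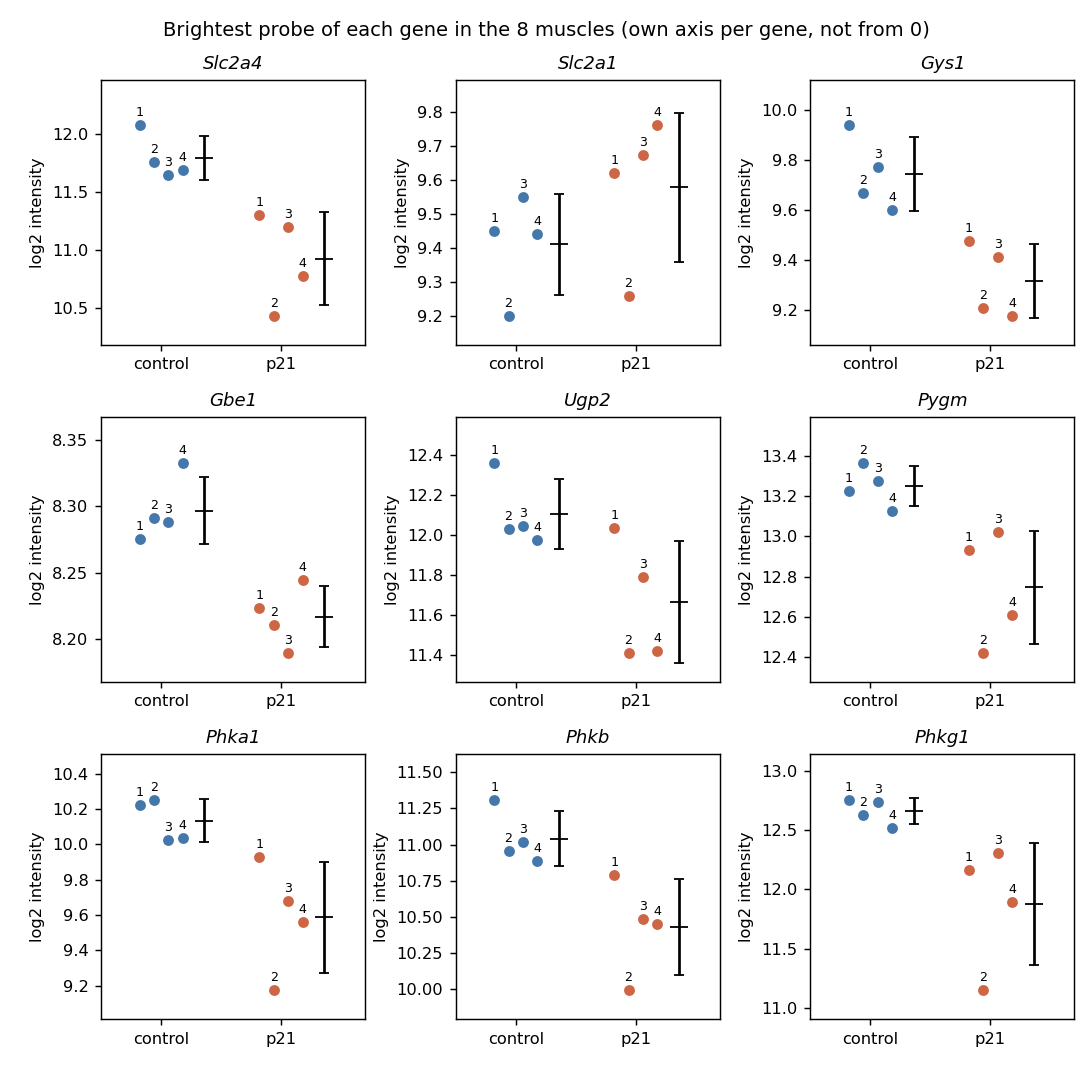
Log2 intensity (vertical axis, its own scale for each gene and not from 0) of the brightest probe of each of the 9 genes in the 4 control (blue) and 4 p21 (orange) muscles; digits are replicate numbers and the black bars are the mean ± SD. In 7 genes all p21 points lie below all control points, and in Slc2a1 and Ugp2 the groups overlap.

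Slc2a4 showed the widest change of the 9 genes. Its probe (ILMN_1222333) read 12.08, 11.76, 11.65 and 11.69 in control replicates 1 to 4, and 11.30, 10.43, 11.20 and 10.78 in p21 replicates 1 to 4. The lowest control lay above the highest p21 muscle, and the p21 muscles were spread more widely than the controls. Means were 11.79 ± 0.19 and 10.93 ± 0.40 (SD, n = 4 each), a change of −0.87 ± 0.18 or 1.83-fold lower (adjusted p = 0.0182). Leaving out control 1, control 2 or p21 replicate 4 ended the call (adjusted p = 0.0588, 0.0543 and 0.0732), and the change ran from −0.99 to −0.70 with an array left out.

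Slc2a1, the basal transporter gene, did not pass the test. Its probe (ILMN_1258159) read 9.45, 9.20, 9.55 and 9.44 in control replicates 1 to 4, and 9.62, 9.26, 9.67 and 9.76 in p21 replicates 1 to 4. All p21 muscles but replicate 2 read above every control, and p21 replicate 2 read below 3 of the 4 controls. The change was 0.17 ± 0.11, with a 95% interval from −0.07 to 0.41 (adjusted p = 0.422), and it was 0.27 without p21 replicate 2 (adjusted p = 0.0665).

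In the unpaired test the 2 transporters changed unequally, though both genes were chosen with earlier results of these data known. Slc2a4 minus Slc2a1 within a muscle, a difference of log2 values, was 2.63, 2.56, 2.10 and 2.25 in the controls and 1.68, 1.17, 1.52 and 1.01 in the p21 muscles. The groups did not overlap, and the mean difference changed by −1.04 ± 0.20. The exact permutation test (two-sided, 70 regroupings) gave p = 0.0286, the smallest that 4 against 4 allow, and 0.0357 after Benjamini-Hochberg adjustment over 5 such pairs. As paired muscles, by equal replicate number, the exact sign-flip permutation test gave p = 0.125, the smallest that 4 pairs allow, so the difference did not pass there.

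Among the synthesis genes, both probes of Gys1, glycogen synthase, fell. The brighter (ILMN_2658553) read 9.94, 9.67, 9.77 and 9.60 in control replicates 1 to 4, and 9.47, 9.21, 9.41 and 9.17 in p21 replicates 1 to 4. Here p21 replicate 4 was the lowest muscle, where in most of the other genes that fell it was p21 replicate 2. The change was −0.43 ± 0.09 or 1.35-fold lower (means 9.75 ± 0.15 and 9.32 ± 0.15, adjusted p = 0.0224). The second probe (ILMN_2658554) changed by −0.38 ± 0.09 (adjusted p = 0.0329), also with no overlap. The brighter probe no longer passed once control 1, 2 or 3 or p21 replicate 4 was dropped (adjusted p = 0.0669, 0.0550, 0.0535 and 0.0846), and its change was −0.67 on the background-subtracted scale.

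Ugp2, which makes the UDP-glucose that glycogen synthase uses, moved in the same direction without passing. Its probe (ILMN_1244631) read 12.36, 12.03, 12.05 and 11.98 in control replicates 1 to 4, and 12.04, 11.41, 11.79 and 11.42 in p21 replicates 1 to 4. The groups overlapped through p21 replicate 1, which read above control replicates 2 and 4. The change was −0.44 ± 0.14, with a 95% interval from −0.75 to −0.12 (adjusted p = 0.0871). It passed with the replicate block (−0.44 ± 0.09, adjusted p = 0.0124) and without p21 replicate 1 (−0.56, adjusted p = 0.0271).

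Gbe1, the branching enzyme gene, fell by a small amount on a dim probe. The probe (ILMN_2592690) read 8.28, 8.29, 8.29 and 8.33 in the controls and 8.22, 8.21, 8.19 and 8.24 in the p21 muscles, replicates 1 to 4 in turn, all close to the floor of 8.13, and only 16.7% of all probes had a lower mean. The groups did not overlap and the change was −0.08 ± 0.02 (adjusted p = 0.0394). The call was lost with any 1 of the 8 arrays left out (adjusted p from 0.0587 to 0.0910), and the sign turned to 0.01 (adjusted p = 0.807) when each array was scaled to its mean over muscle fibre markers. After subtraction of each array's lowest value the change was −0.60, so its size was not fixed by these data.

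Pygm, the muscle glycogen phosphorylase, fell. Its probe (ILMN_1220498) read 13.23, 13.37, 13.28 and 13.13 in control replicates 1 to 4, and 12.93, 12.42, 13.02 and 12.61 in p21 replicates 1 to 4. The highest p21 muscle, replicate 3, lay just below the lowest control, replicate 4. The change was −0.50 ± 0.12 or 1.42-fold lower (means 13.25 ± 0.10 and 12.75 ± 0.28, adjusted p = 0.0328). The call was lost without any 1 control (adjusted p from 0.0504 to 0.0964) and without p21 replicate 4 (0.107), and p21 replicate 2 set much of its size, which was −0.39 without it.

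The synthase and the phosphorylase could not be told apart in how far they changed. The per-muscle difference Gys1 minus Pygm changed by 0.08 ± 0.12, the groups overlapped, and the exact permutation test gave p = 0.571. The 95% interval of the difference, −0.21 to 0.36, does not show that they changed equally.

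All 3 subunit genes of phosphorylase kinase fell by their brightest probes. Phkg1, the catalytic subunit of muscle, changed most: its probe (ILMN_2769795) read 12.76, 12.63, 12.74 and 12.52 in control replicates 1 to 4, and 12.17, 11.15, 12.31 and 11.89 in p21 replicates 1 to 4. The p21 muscles were all below the controls, and replicate 2 lay far below the other p21 muscles. The change was −0.78 ± 0.20 or 1.72-fold lower (means 12.66 ± 0.11 and 11.88 ± 0.52, adjusted p = 0.0384). Without p21 replicate 2 the change was −0.54 with a smaller adjusted p of 0.00972. The call of Phkg1 was lost without any 1 control (adjusted p from 0.0622 to 0.105), without p21 replicate 4 (0.104), with robust eBayes (0.0819), with eBayes without the trend (0.0741) and when genes were tested by the mean of their probes (0.0502).

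Phkb, the β subunit, read 11.31, 10.95, 11.02 and 10.89 in control replicates 1 to 4, and 10.79, 9.99, 10.49 and 10.45 in p21 replicates 1 to 4, by its brightest probe (ILMN_1240699). The groups stood apart and the change was −0.61 ± 0.15 or 1.53-fold lower (adjusted p = 0.0344). Its other 2 probes, at 8.43 and 8.27 in the controls, lay near the floor and did not pass (−0.10 ± 0.04, adjusted p = 0.240, and −0.01 ± 0.03, adjusted p = 0.893). With the mean of all 3 probes the change of Phkb was −0.24 (adjusted p = 0.0630). The call of the brightest probe was lost without any 1 control (adjusted p from 0.0514 to 0.103) and without p21 replicate 3 or 4 (0.0515 and 0.0969).

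Phka1, the muscle α subunit, read 10.22, 10.25, 10.02 and 10.04 in control replicates 1 to 4, and 9.93, 9.17, 9.68 and 9.56 in p21 replicates 1 to 4, by its brightest probe (ILMN_2755333). Again the groups did not overlap, and the change was −0.55 ± 0.14 or 1.46-fold lower (adjusted p = 0.0333). A second probe annotated to the same transcript fell by 0.42 on the log2 scale (adjusted p = 0.0265), while the dimmest probe, annotated to another transcript of Phka1 and at 8.62 in the controls, had a change of −0.13 ± 0.08 (adjusted p = 0.416). The call of the brightest probe was lost without any 1 control (adjusted p from 0.0553 to 0.0961) and without p21 replicate 4 (0.101).

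**Figure D2:**
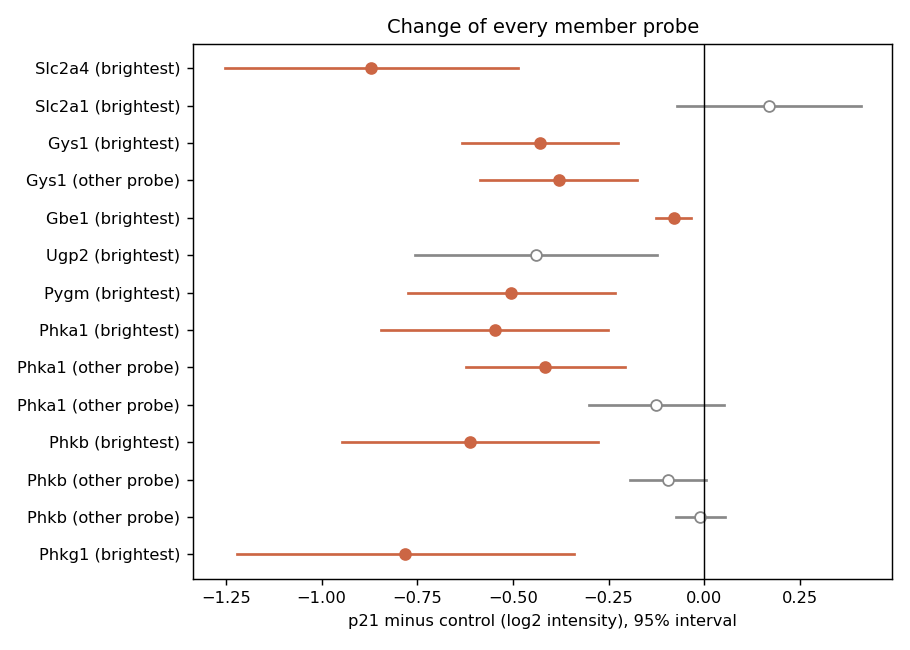
Change of each of the 14 probes, p21 minus control in log2 intensity (horizontal axis), with its 95% interval from limma; filled orange points passed adjusted p 0.05 and open grey points did not. The 9 filled probes all lie below 0, from −0.87 for Slc2a4 to −0.08 for Gbe1, and the 5 open ones belong to Slc2a1, Ugp2, Phka1 and Phkb.

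None of the measured forms of these enzymes that dominate in other tissues fell. Pygb, the brain phosphorylase, changed by 0.20 ± 0.07 (adjusted p = 0.0952), Phka2, the liver α subunit, by 0.25 ± 0.08 (adjusted p = 0.0672) and Phkg2, the liver γ subunit, by 0.10 ± 0.07 (adjusted p = 0.448), none past the threshold. Pygl, the liver phosphorylase, had means of 9.33 ± 0.22 (control) and 9.75 ± 0.26 (p21), and its change of 0.43 ± 0.13 missed the threshold (adjusted p = 0.0748) and passed with the replicate block (adjusted p = 0.0106). Pygl also passed with arrays scaled to the fibre markers and without p21 replicate 1. Phka2 passed with that scaling, over brighter probes only and without p21 replicate 3. The scaling moved the median change of all probes to 0.09. Gys2, the liver synthase gene, sat near the floor at 8.26 and 8.27, and was picked after its values were seen.

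The difference between the muscle form and the other form was tested within each muscle, for genes chosen with earlier results of these data known. Pygm minus Pygb changed by −0.70 ± 0.20, Phka1 minus Phka2 by −0.80 ± 0.23 and Phkg1 minus Phkg2 by −0.88 ± 0.29. In all 3 the p21 muscles lay below all controls, each with an exact permutation p of 0.0286 and an adjusted p of 0.0357 over the 5 pairs. With equal replicate numbers taken as pairs, the exact sign-flip permutation test gave p = 0.125 for each, the smallest that 4 pairs allow, so none passed. Macrophage markers were higher in the same muscles (12 of 17 rose, or 5 without p21 replicate 4 and 7 without control 1 or control 2, mean level 9.66 to 10.32 in controls and 10.79 to 11.37 in p21 muscles). Their part in these differences was not tested.

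**Figure D3:**
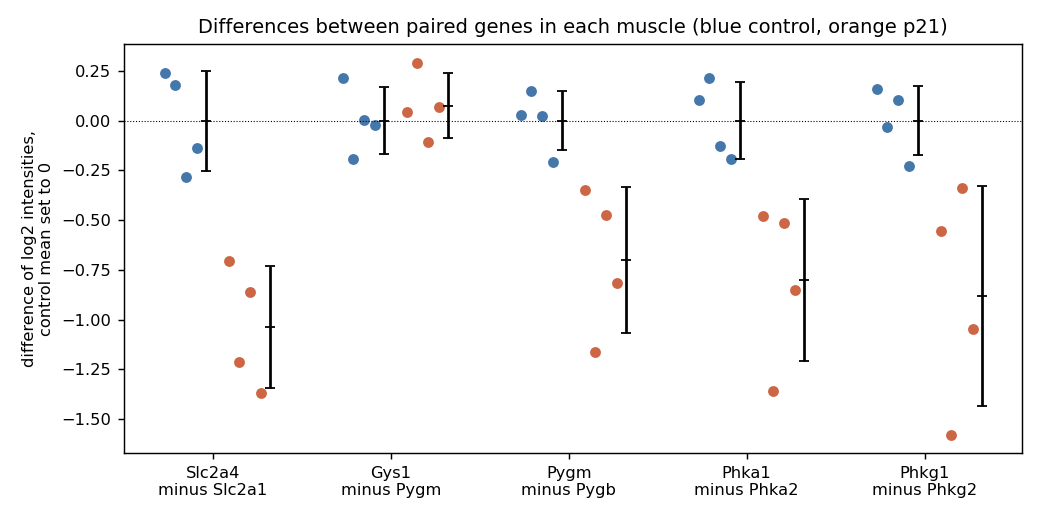
Difference of the log2 intensities of 2 genes in each muscle (vertical axis), with the control mean set to 0 for each pair; points are muscles (blue control, orange p21) and black bars are the mean ± SD. The p21 points lie below all control points in 4 pairs, with mean changes from −1.04 to −0.70, and overlap with them for Gys1 minus Pygm.

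The rest of the pathway was read from 4 lists of partner genes, 88 names of which 78 were measured. Over these, 14 genes fell and 3 rose, where 4.79% of all genes fell and 4.24% rose by their brightest probes. Of the 78 genes 62 were brighter than the median probe, and among all such probes 8.57% fell and 7.15% rose. With a control left out, 1, 3, 6 and 4 genes fell for replicates 1 to 4 in turn, and none fell with p21 replicate 4 left out. No partner gene rose with control 1, control 2 or p21 replicate 4 left out. When each array was scaled to its mean over the muscle fibre markers, 7 partner genes fell and 10 rose, since that scaling moved the median change of all probes to 0.09 and turned the split over the whole table to 634 lower and 1940 higher. Macrophage markers, with a median change of 0.96 (12 of 17 rose, 5 without p21 replicate 4), differed in the same muscles, and their part in the counts was not tested.

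Among 24 measured partners in glycogen metabolism 4 fell and 1 rose, with a median of −0.03. Over the array 4.79% of genes fell and 4.24% rose by brightest probes. Of the 24 partners 20 were brighter than the median probe, and among all such probes 8.57% fell and 7.15% rose. The falls were Gaa, the lysosomal enzyme that digests glycogen (−0.34 ± 0.08, adjusted p = 0.0276), Epm2a, the glycogen phosphatase laforin (−0.22 ± 0.05, adjusted p = 0.0213), Calm3, a calmodulin gene (−0.26 ± 0.07, adjusted p = 0.0461), and Gsk3a, a kinase that inactivates glycogen synthase (−0.12 ± 0.03, adjusted p = 0.0489). The single rise was Stbd1, which tethers glycogen to membranes. Its means were 11.99 ± 0.13 (control) and 12.43 ± 0.17 (p21), 0.44 ± 0.10 apart or 1.35-fold (adjusted p = 0.0291), with no overlap. The Stbd1 call needed control 1, 2 and 3 and p21 replicates 1 and 4, and Calm3 and Gsk3a lost theirs with any 1 array left out and with the replicate block (adjusted p = 0.0539 and 0.0631). Gaa no longer passed with any 1 control or p21 replicate 4 dropped, and Epm2a with control 1 or p21 replicate 4 dropped. Under the scaling to fibre markers all 4 falls were lost.

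Partners that missed the threshold included Ppp1r3c, which brings protein phosphatase 1 to glycogen and had a change of −0.50 ± 0.15 (adjusted p = 0.0563, and 0.00339 with the replicate block). Pgm5, related to phosphoglucomutase, changed by 0.15 ± 0.04 (adjusted p = 0.0585). The glycogen primer gene Gyg had a change of −0.25 ± 0.13 (adjusted p = 0.302) and Pgm1, a phosphoglucomutase gene, of −0.22 ± 0.12 (adjusted p = 0.335). Gyg and Pgm1 were picked after their values were seen.

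Among 25 measured genes of glucose uptake and GLUT4 traffic 4 fell and 1 rose, with a median of −0.01. Over the array 4.79% of genes fell and 4.24% rose by brightest probes. Of the 25 genes 22 were brighter than the median probe, and among all such probes 8.57% fell and 7.15% rose. Hk2, the muscle hexokinase that traps glucose in the cell, had means of 13.66 ± 0.08 (control) and 13.11 ± 0.35 (p21), with a change of −0.55 ± 0.14 or 1.47-fold lower (adjusted p = 0.0374). Prkaa2, a catalytic subunit of AMPK, which promotes glucose uptake during contraction, changed by −0.52 ± 0.10 (adjusted p = 0.0163). Txnip, which restrains glucose uptake, changed by −0.47 ± 0.11 (adjusted p = 0.0247) and Trip10, a Cdc42-binding protein, by −0.38 ± 0.09 (adjusted p = 0.0329). Rab8a, a small GTPase of vesicle traffic, was the gene that rose, from 10.66 ± 0.19 to 11.29 ± 0.22 (change 0.62 ± 0.13, adjusted p = 0.0192), by 1 of its 2 probes. Dropping control 1 or p21 replicate 4 ended the call of Prkaa2, dropping control 1, control 2 or p21 replicate 4 that of Rab8a, and dropping any 1 control or p21 replicate 4 those of Hk2, Txnip and Trip10.

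The named genes of insulin signalling did not pass the test. The change of the insulin receptor gene Insr was −0.16 ± 0.08 (adjusted p = 0.269), that of Akt2, the kinase that relays insulin to GLUT4, −0.01 ± 0.05 (adjusted p = 0.920), and that of Irs2, a receptor substrate, −0.17 ± 0.05 (adjusted p = 0.0746). Tbc1d1, a brake on GLUT4 traffic, had a change of −0.23 ± 0.08 (adjusted p = 0.104, and 0.0214 with the replicate block), and Vamp2, a vesicle fusion protein, one of −0.18 ± 0.08 (adjusted p = 0.210). Hk1, another hexokinase, had a change of 0.10 ± 0.04 (adjusted p = 0.175). Insr and Akt2 were picked after their values were seen.

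Of 11 other hexose transporters none fell and 1 rose, with a median of 0.01, where 4.79% of all genes fell and 4.24% rose. The transporter that rose was Slc2a6, with means of 8.82 ± 0.30 (control) and 9.41 ± 0.31 (p21). Its change was 0.58 ± 0.16 (adjusted p = 0.0486), although the groups overlapped. It passed in only 2 of the 8 fits with an array left out, those without control replicate 3 and without p21 replicate 2. With all 8 arrays its call was lost on the background-subtracted scale, with robust eBayes, with eBayes without the trend and with the mean of probes. Slc2a9, a urate transporter, changed by 0.11 ± 0.04 (adjusted p = 0.119), Slc2a13, a myo-inositol transporter, by 0.11 ± 0.05 (adjusted p = 0.171), Slc2a12 by 0.06 ± 0.03 (adjusted p = 0.153) and the fructose transporter Slc2a5 by 0.05 ± 0.03 (adjusted p = 0.276). Only 5 of the 11 were brighter than the median probe. Macrophage markers moved in the direction of Slc2a6, and their part in its change was not tested.

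By brightest probes 4.79% of all genes fell and 4.24% rose, and among probes brighter than the median probe 8.57% fell and 7.15% rose. Of 18 measured regulators known for Slc2a4, 15 of them brighter than the median probe, 6 fell and 0 rose, with a median of −0.15. They were Thra, a thyroid hormone receptor (−0.37 ± 0.06, adjusted p = 0.0121), Hdac4, a class II deacetylase (−0.29 ± 0.06, adjusted p = 0.0241), Nfic, a nuclear factor I gene (−0.39 ± 0.09, adjusted p = 0.0270), Srebf1 (−0.17 ± 0.04, adjusted p = 0.0274), Ppargc1a, the coactivator PGC-1α (−0.32 ± 0.08, adjusted p = 0.0299), and Mlxipl, the glucose-responsive factor ChREBP (−0.41 ± 0.10, adjusted p = 0.0340). Hdac4 is known as a repressor of Slc2a4 and Ppargc1a as an activator, so genes with opposite known effects on Slc2a4 fell. With a control left out, 1, 1, 4 and 1 of them fell for replicates 1 to 4 in turn, and with p21 replicate 3 or 4 left out 4 and 0 fell. With each array scaled to its fibre markers 2 of the 18 fell and 1 rose. Only 1 of 3 Nfic probes and 1 of 2 Srebf1 probes passed, and the Nfic call was lost with the mean of probes.

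Of the others, Mef2d, a MEF2 factor, changed by −0.18 ± 0.05 (adjusted p = 0.0517), Foxo1 by −0.20 ± 0.06 (adjusted p = 0.0520), Hdac5 by −0.19 ± 0.08 (adjusted p = 0.207) and Myod1, a myogenic factor, by 0.21 ± 0.07 (adjusted p = 0.104). With the replicate block Mef2d, Foxo1 and Myod1 passed (adjusted p = 0.0286, 0.0421 and 0.0299). The other MEF2 genes, Mef2a and Mef2c, picked after their values were seen, had changes of −0.14 ± 0.09 and 0.01 ± 0.09.

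**Figure D4:**
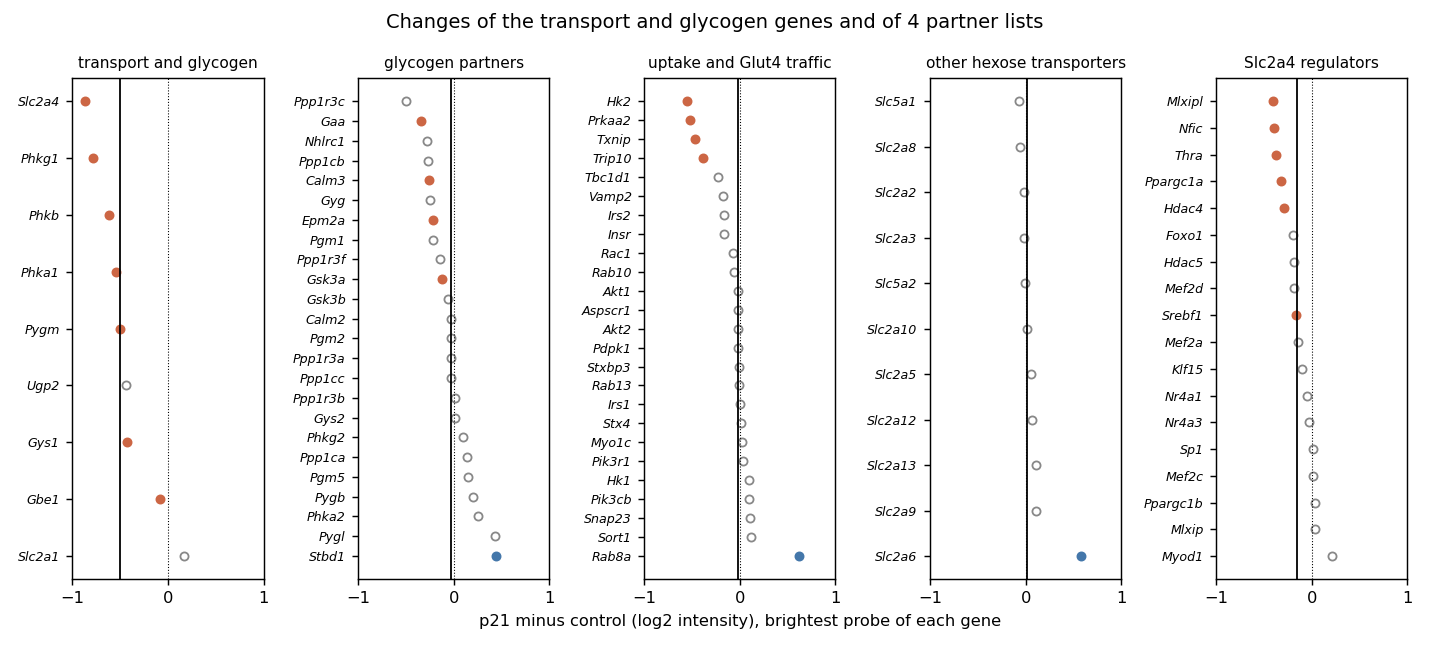
Change of every measured gene, p21 minus control in log2 intensity (horizontal axis), by its brightest probe, for the 9 transport and glycogen genes and the 4 partner lists; filled points passed adjusted p 0.05 (orange lower, blue higher), open points did not, and the black line is the median of the list. The median lies at −0.50 for the 9 genes and between −0.15 and 0.01 for the partner lists.

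The extremes fell on the same muscles in most of the genes. Of the 9 genes, 6 had their lowest value of all 8 muscles in p21 replicate 2, and 5 had their highest in control replicate 1. Over all probes these arrays also had the lowest limma array weights, 0.50 and 0.77, given to arrays that deviate more from their group. The share of all probes with such extremes was not counted, so these counts are no trait of the 9 genes alone. The same p21 replicate 2 had the highest Cdkn1a reading, 11.72, and the highest mean of the macrophage markers, 11.37, while control replicate 1 had the lowest of both, 9.83 and 9.66. Within the p21 group Slc2a4 read 11.30, 11.20, 10.78 and 10.43 in replicates 1, 3, 4 and 2, where Cdkn1a read 11.31, 11.25, 11.50 and 11.72 and the macrophage mean 10.84, 10.79, 11.17 and 11.37. Thus the 2 p21 muscles with less Slc2a4 had more Cdkn1a signal and more macrophage marker signal. The 4 muscles of a group are too few for a correlation, the 2 measures moved together, and the part of either in the change of Slc2a4 was not tested. The muscle fibre markers had their lowest mean in p21 replicate 2 as well (14.47, against 14.58 to 14.64 in the other p21 muscles). The markers were not alike in this: Tcap (14.11), Mb (14.14), Myh4 (13.20) and Ckm (14.99) read lowest of all 8 muscles there. Des read highest of all 8 there (14.36), and the other fibre markers had their lowest value in another muscle. With each array scaled to its fibre marker mean, Slc2a4 changed by −0.78, Phkg1 by −0.69, Phkb by −0.52, Phka1 by −0.45, Pygm by −0.41 and Gys1 by −0.34. All 6 passed (adjusted p from 0.00527 to 0.0279). Several of these markers read near the top of the scale, where changes may be compressed. The scaling may therefore miss part of a change in fibre content, which was not tested.

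**Figure D5:**
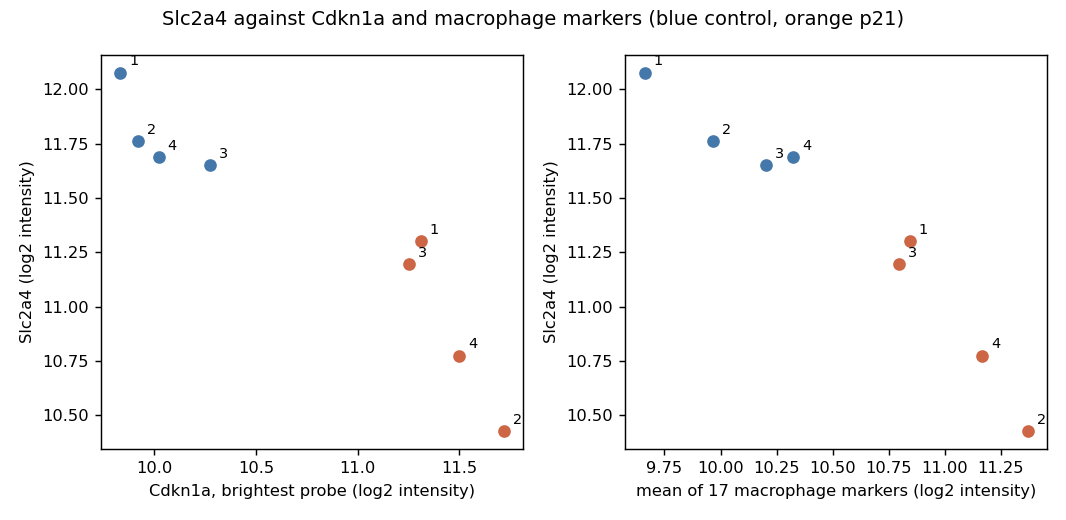
Slc2a4 in log2 intensity (vertical axes) against the brightest Cdkn1a probe (left) and the mean of 17 macrophage markers (right), each in log2 intensity, in the 4 control (blue) and 4 p21 (orange) muscles, with digits for the replicate. The p21 muscles lie to the lower right in both panels, with p21 replicate 2 the farthest at 10.43 for Slc2a4.

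The genes whose profile over the 8 muscles came closest to that of Slc2a4 were sought among 12081 probes brighter than the median probe. Likeness was the root mean square difference of log2 values after each probe's own mean was removed, so that 0 is an identical profile. The 5 nearest were Adssl1, a muscle enzyme of the purine nucleotide cycle (0.05), Pptc7, a mitochondrial phosphatase (0.06), Synm, the intermediate filament protein synemin (0.06), Plaat1 (0.07) and Txlnb, or taxilin beta (0.08). Their changes ran from −0.90 to −0.73. Of the other glucose and glycogen genes Phkg1 (0.16) and Phkb (0.17) came nearest and Slc2a1 (0.57) lay farthest. This ranking was made from the same muscles as the changes above and describes them only.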

How the data were processed

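Illumina bead arrays with 1 colour measured gene expression in 8 muscles, 4 per group by the titles in the labels. RNA was extracted with TRIzol, purified on columns with DNase, and amplified and biotin labelled with the TotalPrep kit, per the labels' protocols. The deposited values are log2 intensities of 25697 probes, and their sorted values differed between arrays by at most 0.00073, as quantile normalisation between arrays leaves them. The array software and background correction were not given in the sources used here. Quantile normalisation removes differences in total signal between arrays, and the number of arrays limits the precision. Gene names came from the platform annotation, which names 23978 probes, and the Entrez numbers of 23962 of these matched a RefSeq gene table. No probe was filtered and no detection calls were used.

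The comparison used lmFit and eBayes with an intensity trend from limma 3.58.1 (R 4.3.3, two-sided). All probes entered the Benjamini-Hochberg adjustment, and the threshold was 0.05. Differences between paired genes were tested by an exact permutation test over 70 regroupings in Python 3.11.15. The steps were tested on simulated data. The genes, lists and naming rule were chosen with earlier results of these data known. The rule names every probe of the 9 genes, Cdkn1a, per partner list up to 10 genes past the threshold and the 4 others of smallest p, and the 5 genes nearest to Slc2a4. Of 88 partner names, 78 were measured.

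The labels number each group from 1 to 4. Between arrays of the same number, deviations from the group mean had correlations over all probes of 0.483, 0.264, 0.212 and 0.181, all over 0.1. Equal numbers served as pairs only in the replicate block and the sign-flip tests, and the main fit was unpaired. Pairing was judged from these same data, so calls with the block are no independent evidence. The pairing is uncertain: control 3 was closer to p21 replicate 4 (0.448) and control 4 to p21 replicate 2 (0.297). Alternatives were the replicate block, repeated quantile normalisation, median centring, scaling to the mean of the fibre markers, only brighter probes, eBayes without the trend or robust, weights per array, 16 added to linear values, each array's lowest linear value subtracted and 16 added, thresholds of 0.01 and 0.1, averaging a gene's probes, and omitting each array in turn.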

Additional observations from a re-analysis of the deposited data

Results flagged for a closer look

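In 104 groups of 4 muscles, 5 had a muscle set apart from the other 3 of its group by more than Dixon's 95% limit, and chance flags about 1 in 20 such groups. None was among the 9 glucose and glycogen genes. Control replicate 1 read lowest for Rab8a, at 10.38 with the next control at 10.72, and highest for Trip10, at 10.40 with the next at 10.24. Control replicate 3 read lowest for Ppargc1a, at 9.26 with the next control at 9.30. In the p21 group replicate 1 read highest for Slc2a12, at 8.35 with the next at 8.27, and replicate 2 lowest for Slc2a5, at 8.27 with the next at 8.32.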

How the results depend on the processing

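With an array left out, 0 to 7 of the 9 genes fell and none rose, 0 to 14 partner genes fell and 0 to 4 rose, and 29 to 1172 probes of the array were lower and 130 to 1032 higher. At adjusted p 0.01 none of the 9 genes and no partner gene was called, with 24 probes lower and 109 higher, and at 0.1 the rises of partner genes were 7 and the array had 1908 lower and 1582 higher. Without the trend 2 of the 9 genes fell (Slc2a4 and Gys1), with robust eBayes 6 (not Phkg1) and with the mean of probes 5 (not Phkb or Phkg1). Scaled to fibre markers, 7 partner genes fell and 10 rose, with 634 probes lower and 1940 higher, and Gbe1 turned to 0.0137 (adjusted p = 0.807). Partner rises were 5 over brighter probes and 5 with the replicate block, which called 1559 probes higher. The block added Ugp2 to the genes that fell and ended no call among the 9. Of 170 recomputed changes of the 9 genes, 123 kept direction and side of the threshold, 44 fell short of it, 2 newly passed and 1 reversed. The cause was not tested. Part of the 123 was fixed beforehand, since repeated quantile normalisation and median centring barely alter values that are already quantile normalised. Slc2a1 and Ugp2, not called in the main fit, gave 19 and 17 of the 123, so the tally overstates how steady the calls were. With equal numbers as pairs, the exact sign-flip permutation test, which cannot go below p = 0.125, gave that value for 4 gene pairs and so ended their calls, at unmoved changes of −1.04, −0.70, −0.80 and −0.88 (0.875 for Gys1 with Pygm). With an array left out the 5 pair changes ran from −1.15 to −0.93, 0.00 to 0.15, −0.82 to −0.55, −0.91 to −0.61 and −1.06 to −0.65, in the order Slc2a4 with Slc2a1, Gys1 with Pygm, Pygm with Pygb, Phka1 with Phka2, Phkg1 with Phkg2. On the background-subtracted scale Gys1 minus Pygm was −0.15 and Phka1 minus Phka2 −1.22. With the mean of probes Phka1 minus Phka2 shrank to −0.50. Low signal limits Gbe1, the dimmer Phkb probes and most other hexose transporters.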
